A study of Mus musculus with 2 samples.

Results

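The catecholamine neuron genes described here are 5 of the 21851 protein-coding genes annotated in the mouse: Th, Dbh, Slc6a2, Slc6a3 and Nr4a2. They were chosen by name for their role in neurons that make dopamine and noradrenaline, not by their values. A peak was given to a gene when it lay within 1 kb of one of the gene's annotated starts (a promoter peak), or up to 100 kb away with that gene's start the nearest of all protein-coding starts (a distal peak). By this rule 71 of the 231068 sites of the series belonged to the 5 genes, where a site is a peak, or a set of overlapping peaks, of either library.

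The series measured open chromatin by DNase-seq, an assay that digests nuclei with a nuclease and sequences the ends it leaves, which pile up where DNA is accessible. It holds 1 group of 2 biological replicates: hindbrain tissue of B6NCrl mouse embryos at embryonic day 11.5, healthy, with both sexes pooled. The labels give both replicates the same donor entry and separate tissue samples. With 1 group of 2 libraries there is no comparison between conditions and no test across samples, so each value is given for replicate 1 and then replicate 2.

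Catecholamines are made from tyrosine. Tyrosine hydroxylase, encoded by Th, catalyses the rate-limiting first step to L-DOPA, the decarboxylase encoded by Ddc turns this into dopamine, and dopamine beta-hydroxylase, encoded by Dbh, turns dopamine into noradrenaline. The transporters encoded by Slc6a2 and Slc6a3 take noradrenaline and dopamine back into the neuron. Nr4a2 (Nurr1) encodes an orphan nuclear receptor needed for midbrain dopamine neurons and expressed in other neurons as well. In the hindbrain, the noradrenergic neurons of the locus coeruleus arise early in development under factors such as Phox2a and form a small part of the tissue, while dopamine neurons form mainly in the midbrain.

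The promoters of the members differed in CpG content. RefSeq promoters on GRCm38.p6, the patched release of the mm10 build, run from 250 bases before a gene's RefSeq start to 50 after it. At Th and Dbh the RefSeq start differs from the annotated start that peaks are measured from. The Dbh window begins downstream of that annotated start, 27165233, and so does not show it. Entries matched 4 of the 5 members, Slc6a2 being the other. They are shown because the order of the promoters by CpG content runs with the order of their peaks, given further on. All are written 5′ to 3′ on the gene's own strand, and capitals mark matches to any of 12 short motifs searched on both strands.
Th, chr7:142899946-142900245, minus strand: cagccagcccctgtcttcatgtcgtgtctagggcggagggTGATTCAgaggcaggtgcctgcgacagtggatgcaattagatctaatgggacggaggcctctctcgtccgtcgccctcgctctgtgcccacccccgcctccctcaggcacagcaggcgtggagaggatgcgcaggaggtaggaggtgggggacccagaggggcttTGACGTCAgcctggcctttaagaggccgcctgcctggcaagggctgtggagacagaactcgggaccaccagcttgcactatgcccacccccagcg
Dbh, chr2:27165257-27165556, plus strand: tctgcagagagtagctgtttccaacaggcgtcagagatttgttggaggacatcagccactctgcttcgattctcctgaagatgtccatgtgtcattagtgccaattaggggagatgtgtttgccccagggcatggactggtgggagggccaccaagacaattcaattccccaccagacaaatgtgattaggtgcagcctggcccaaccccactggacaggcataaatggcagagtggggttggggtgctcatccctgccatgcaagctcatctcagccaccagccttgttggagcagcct
Slc6a3, chr13:73536497-73536796, plus strand: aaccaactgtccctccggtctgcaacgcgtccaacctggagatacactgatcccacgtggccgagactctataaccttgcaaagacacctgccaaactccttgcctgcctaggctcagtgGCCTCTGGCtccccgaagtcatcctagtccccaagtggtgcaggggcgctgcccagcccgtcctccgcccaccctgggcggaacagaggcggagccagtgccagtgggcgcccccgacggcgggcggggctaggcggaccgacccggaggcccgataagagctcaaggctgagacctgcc
Nr4a2, chr2:57123954-57124253, minus strand: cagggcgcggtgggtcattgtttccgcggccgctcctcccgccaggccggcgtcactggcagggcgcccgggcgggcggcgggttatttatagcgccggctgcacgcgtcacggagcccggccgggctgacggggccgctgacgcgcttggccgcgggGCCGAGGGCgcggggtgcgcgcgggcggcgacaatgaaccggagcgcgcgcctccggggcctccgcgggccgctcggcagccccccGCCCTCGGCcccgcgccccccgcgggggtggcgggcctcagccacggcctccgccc

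These 300-base windows held 15 CG dinucleotides at Th, 2 at Dbh, 20 at Slc6a3 and 52 at Nr4a2. Motif positions are counted from the RefSeq start. The Th promoter held the full cAMP response element TGACGTCA, beginning 45 bases before that start, a motif found in 1.79% of the 32851 RefSeq promoters. It also held an AP-1 motif (TGANTCA, in 7.81% of promoters) beginning 210 bases before the start. AP-2 motifs (GCCNNNGGC, in 16.6% of promoters) stood once in the Slc6a3 window, beginning 130 bases before the start, and at 92 and 6 bases before the start in the Nr4a2 window. The Dbh window held none of the 12. The other motifs searched were AAGGTCA, part of the sequence that NR4A receptors recognise, and TAATTA, the core that homeodomain factors recognise. Otx and Pitx factors were represented by TAATCC, and proneural and other basic helix-loop-helix factors by the E-box CAGCTG. A second E-box was searched as CATCTG, and the forkhead factors were represented by the letters TGTTTAC. The GATA and Sox families were represented by AGATAA for the former family and, for the latter, by ACAAAG, and the architectural factor CTCF by its consensus. No marked match overlapped another, and a match describes letters, not binding.

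A second set of sequences is shown because it recurs at the highest distal sites of 3 members. Each line gives 30 bases of a distal site open in both libraries, on the strand that matches, with the CTCF consensus match in capitals.
Th, chr7:142894848-142894877, plus strand: ccagaattaCCAGCAGGTGGCatcaaaccc
Slc6a2, chr8:92998848-92998877, minus strand: caaacctaaCCACCAGAGGGCagtagttgc
Slc6a3, chr13:73513410-73513439, plus strand: atccattgaCCACTAGGTGGCaccagaagc
Slc6a3, chr13:73505898-73505927, minus strand: caattctgcCCAGCAGGGGGCgtgagagtg

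The values of the series bear on how the members' peaks can be read. Replicate 1 had 150176 analysed peaks and replicate 2 had 194873, and the hotspots (broader stretches with more cuts than their surroundings) spanned 44.7 Mb and 73.7 Mb. Peak heights had a median of 36 and 50. No source used here gives their scaling and the files hold no read counts, so depth is unknown and heights were compared by rank within a library. Of all protein-coding genes 65.7% had a shared promoter site, meaning a merged site with a peak of each library. Of 29 marker genes of the tissue and of cells it could hold, 17 (58.6%) had one, a share below that of all genes. All 6 neural genes and 3 of 6 hindbrain genes, Egr2 and Gbx2 among them, had one, while Hoxa2, Hoxb1 and Hoxb2 had promoter peaks in replicate 2 only. None of the 4 blood genes had a promoter peak in either library, against 3 of 3 mesenchyme genes, 2 of 4 neural crest and sympathetic genes, 2 of 3 forebrain genes and 1 of 3 endothelial genes with a shared one. The part of these other cells in the members' peaks was not tested, and in bulk tissue a site open in few cells and a site weakly open in many cannot be told apart.

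Of the 5 members, 3 had a shared promoter site: Slc6a2, Slc6a3 and Nr4a2. Across all protein-coding genes 65.7% had one, so the members' count lay near the background. Promoter peaks were listed for 3 members in replicate 1 (66.9% of all genes) and 4 in replicate 2 (69.3%). A promoter hotspot stood in both libraries at the same 3 members (66.6% of all genes), and at least 1 annotated start of each lay inside one in both (61.0%). At Nr4a2 in replicate 1 this was the inner start at 57115038, not the main start. Among genes with a promoter peak, the median height of the highest one was 100 in replicate 1 and 126 in replicate 2. Slc6a2 and Slc6a3 lay far below these medians in both libraries and Th did so in replicate 2, while Nr4a2 lay above them.

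**Figure D1:**
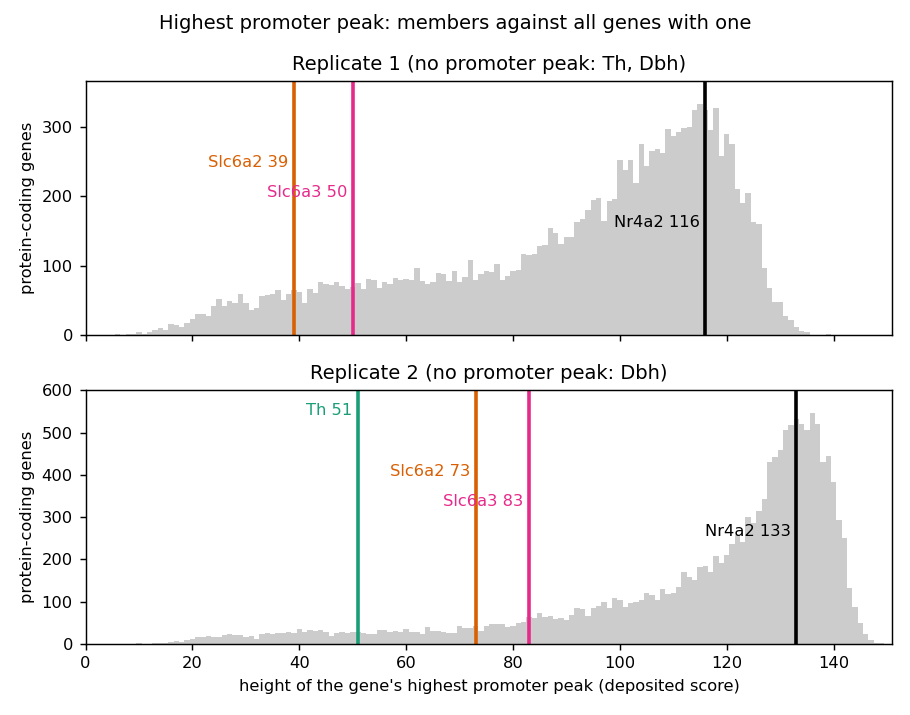
Highest promoter peak of each member (coloured lines) against all protein-coding genes with a promoter peak (grey bars, number of genes per unit of height), in each replicate. Slc6a2 (39 and 73) and Slc6a3 (50 and 83) sit in the low tail of both libraries, Th (51) in that of replicate 2, and Nr4a2 (116 and 133) within the main body.

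Th (ENSMUSG00000000214.11, minus strand of chromosome 7) had no promoter peak in replicate 1 and 1 in replicate 2. That peak, of height 51 at 142900036 to 142900185, was centred 97 bp upstream of the main start at 142900014. It lay 1 unit above the median of all replicate 2 peaks, 50, but above only 4.9% of the highest promoter peaks of genes that had one. Its hotspot was 296 bp wide with a −log10 false discovery rate of 3.23, where stronger hotspots reach 6 and the strongest are written as 100. In the promoter sequence printed above, the peak covers bases 61 to 210, so it ends within the cAMP response element, which begins at base 206. The nearest replicate 1 peak to the main start, of height 25, lay 2.2 kb downstream. Another annotated Th start at 142931128, that of a longer transcript, had its nearest peak 11.72 kb away in both libraries.

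Away from the promoter, Th had 4 shared distal sites, the most of the 5 members by the nearest-gene rule. Its highest, at 142894796 to 142894945 in a Th intron 5.14 kb downstream of the main start, had heights of 85 and 105, above 89.8% and 89.3% of all peaks. Both libraries placed it in a hotspot of value 100. It is the site of the CTCF consensus match printed above for Th. The others were 62 and 90 at 142919336 to 142919485, 32 and 68 at 142916296 to 142916445, and 48 and 72 at 142850816 to 142850965. The first pair of these lie 19.4 kb and 16.36 kb upstream of the main start, inside an intron of the longer transcript, and the last lies between genes 49.1 kb downstream.

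Peaks of 1 library alone were numerous at Th. Replicate 1 alone had 5 distal sites with heights from 22 to 49, the highest at 142831416 to 142831565. Replicate 2 alone had 9, from 29 to 62, the highest at 142903096 to 142903245, 3.16 kb upstream of the main start. Of these 9, 7 lay within 6 kb of the main start, where replicate 1 listed a single peak apart from the shared site. Counting shared and unshared peaks, Th had 9 distal peaks in replicate 1 and 14 in replicate 2, more than 86.4% and 89.3% of genes.

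Dbh (ENSMUSG00000000889.8, plus strand of chromosome 2, start 27165233) had no promoter peak and no promoter hotspot in either library. The nearest peak lay 8.4 kb away in replicate 1 and 8.46 kb in replicate 2. These peaks form its only shared site, at 27156696 to 27156905 between genes, 8.43 kb upstream of the start, with heights of 19 and 27. Only 8.2% and 7.3% of peaks were lower, and the hotspots under it had −log10 values of 2.60 and 1.52, close to the lowest in the files, 1.3. A single replicate 2 peak of height 42 lay 18.66 kb downstream of the start at 27183816 to 27183965. By the nearest-gene rule Dbh therefore had the fewest peaks of the 5 members in both libraries. Another 10 shared sites lay within 100 kb of Dbh but nearer to a neighbour, the highest with heights of 67 and 91 at 27237436 to 27237605, in an intron of Sardh 72.3 kb away. Counted whichever gene is nearest, Dbh had 11 shared distal sites.

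Slc6a2 (ENSMUSG00000055368.14, plus strand of chromosome 8), the noradrenaline transporter gene, had 3 promoter peaks in replicate 1 and 2 in replicate 2. A shared site at 92960436 to 92960625, in an intron 0.45 kb downstream of the main start at 92960079, had heights of 32 and 73. A shared site at 92961076 to 92961305, in an untranslated exon part just past the other start at 92960933, had heights of 39 and 59. The order of these sites thus turned between the libraries. Replicate 1 alone had a peak of height 20 centred 48 bp upstream of the main start. The highest promoter peak, 39 and 73, exceeded 6.7% and 9.3% of those of genes with one. Replicate 1 split the region into 3 hotspots, the widest 516 bp and none at value 100, where replicate 2 had a single one of 1714 bp at value 100.

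Slc6a2 had 2 distal sites, both shared and both inside the gene near its 3′ end. The higher, at 92998776 to 92998925 in its untranslated region 38.8 kb from the main start, had heights of 71 and 87, and holds the CTCF consensus match printed above. The lower, at 92996956 to 92997105 in a coding exon, had heights of 39 and 64. Past the gene's end, 3 further shared sites stood 50.4 to 52.3 kb downstream of the main start but were nearer to Ces1a. The highest of these, at 93011576 to 93011725 with heights of 93 and 108, exceeded every site given to Slc6a2 and also matched the CTCF consensus.

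Slc6a3 (ENSMUSG00000021609.6, plus strand of chromosome 13, start 73536747), the dopamine transporter gene, had a shared promoter site over its start at 73536636 to 73536825. Its heights were 50 and 83, above 67.4% and 77.2% of all peaks but above only 11.8% and 12.2% of the highest promoter peaks of genes with one. The hotspot over it had value 100 in both libraries and was 590 bp wide in replicate 1 and 1734 bp in replicate 2. Replicate 2 alone had promoter peaks of 43 and 34 on either side of it. In the promoter sequence above, the replicate 1 peak covers bases 180 to 300 and the replicate 2 peak bases 140 to 289.

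The 3 shared distal sites of Slc6a3 all lay upstream, inside the neighbouring gene Lpcat1, which encodes a phospholipid acyltransferase. The site at 73513376 to 73513525, in an intron 23.3 kb from the start, had heights of 86 and 90. That at 73505816 to 73505985, in an intron 30.8 kb away, had 66 and 83. Both hold a CTCF consensus match, printed above. The first also holds the letters AAGGTCA, found in 2.83% of shared distal sites. These letters are only part of the sequence that NR4A receptors recognise, and binding of such a receptor there was not tested. The site at 73515476 to 73515645 was low in both libraries, at 29 and 30, and beside it replicate 1 alone had a peak of height 25 at 73515236 to 73515385. Within Slc6a3 itself the only distal peak was 1 of height 23 in replicate 2, in a coding exon 30.9 kb from the start. The Lpcat1 promoter, 65.0 kb from the Slc6a3 start, had heights of 111 and 132.

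**Figure D2:**
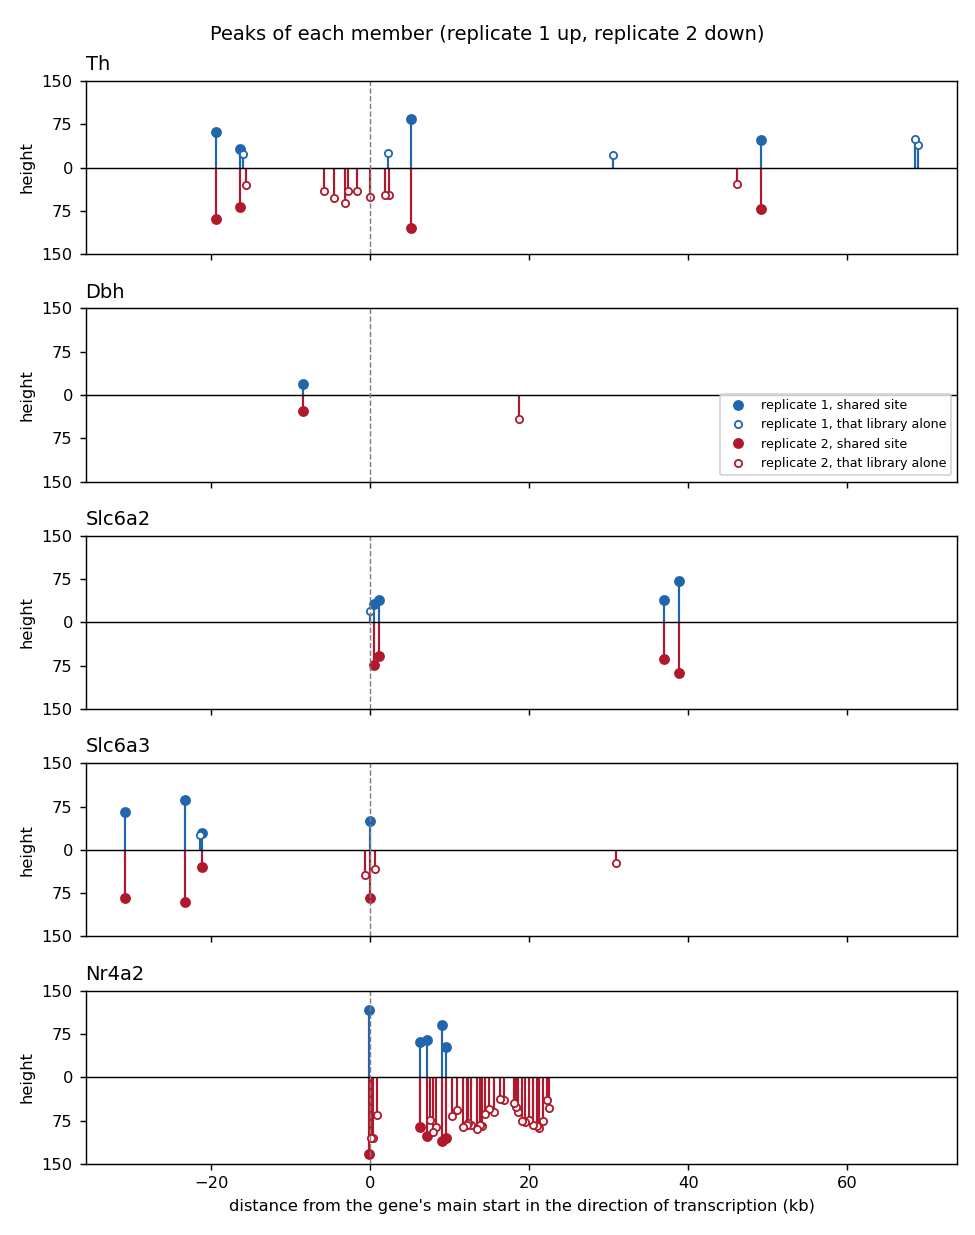
Every site of each member by its distance from the main start in the direction of transcription (kb), with the peak height in replicate 1 drawn upward and in replicate 2 downward. Filled points are shared sites and open points are sites of 1 library. Dbh has a single low shared site (19 and 27), and Th, Slc6a2 and Slc6a3 have their highest sites away from the start. The replicate 2 sites of Nr4a2 form a dense run downstream of its start.

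At Th, Dbh, Slc6a2 and Slc6a3 the highest distal peak exceeded the highest promoter peak in both libraries, an absent promoter peak being counted as 0. The heights were 85 and 105 against none and 51 at Th, and 19 and 42 against none at Dbh. They were 71 and 87 against 39 and 73 at Slc6a2, and 86 and 90 against 50 and 83 at Slc6a3. Nr4a2 showed the reverse, with 64 and 102 against 116 and 133. Of all protein-coding genes 22.6% had a higher distal than promoter peak in both libraries. This measure was chosen after the members' values were seen.

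Nr4a2 (ENSMUSG00000026826.13, minus strand of chromosome 2) had the highest promoter peak of the 5 members in both libraries. It stood at 57124116 to 57124265, centred 188 bp upstream of the main start at 57124003, with heights of 116 and 133, above 98.0% and 97.5% of all peaks. Among the highest promoter peaks of genes with one, 79.2% and 68.8% were lower, so it was high among peaks but not exceptional among promoters. Further shared promoter sites lay at the inner starts, with heights of 90 and 111 at 57114876 to 57115065 and 53 and 106 at 57114416 to 57114645. Its 2 shared distal sites, of 64 and 102 at 57116796 to 57116965 and 62 and 87 at 57117696 to 57117845, lay in introns between the starts. Every shared site of Nr4a2 therefore fell within 9.5 kb of the main start.

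Replicate 2 showed far more at Nr4a2 than replicate 1. Over the 22.8 kb from 57101456 to 57124265, which spans the gene and its downstream flank, replicate 1 had 5 peaks and replicate 2 had 37. Heights ran from 53 to 116 with a median of 64 in replicate 1, and from 38 to 133 with a median of 79 in replicate 2. Hotspots that touched this stretch had a total width of 1.11 kb in replicate 1 and 16.88 kb in replicate 2, the widest being 352 bp and 2858 bp. In each library part of this width lay past the ends of the stretch. Beyond the stretch, no peak of either library was listed as far as 100 kb downstream of the last start, nor within 45 kb upstream.

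The excess at Nr4a2 consisted of 32 sites of replicate 2 alone, 7 in promoter windows and 25 distal. Only 79 of the 21851 genes had more sites of replicate 2 alone, and the median gene had 1. The 25 distal ones had heights from 38 to 95 with a median of 75, whereas the median of all distal sites of replicate 2 alone was 39 and their upper quartile 50. The highest, 95, lay at 57116016 to 57116165 in an intron. With the replicate 2 list shortened to the 150176 highest peaks, the number in replicate 1, all 37 peaks at Nr4a2 remained. In replicate 1, 56.5% of genes had fewer peaks than the 5 of Nr4a2, against 98.3% with fewer than its 37 in replicate 2. The replicate 2 list was also longer and its hotspots covered more of the genome, and their part in the difference at Nr4a2 was not tested.

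**Figure D3:**
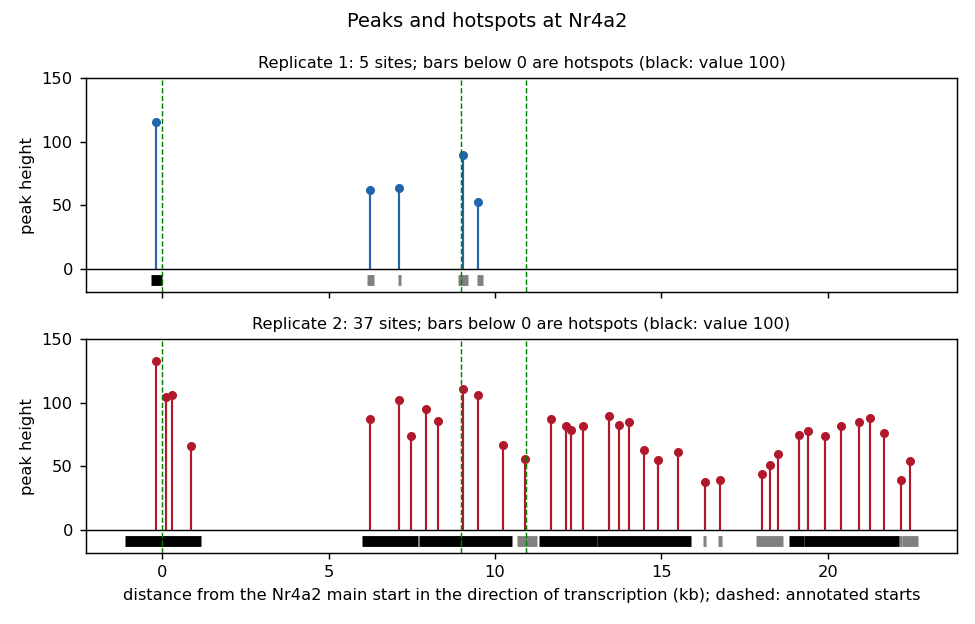
Peaks (stems, height) and hotspots (bars below 0, black where the value is 100) at Nr4a2 in each replicate, by distance from the main start in the direction of transcription (kb), with dashed lines at the annotated starts. Replicate 1 has 5 peaks and 1.11 kb of hotspots, replicate 2 has 37 peaks and 16.88 kb.

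Upstream of Nr4a2 the interval to the next gene, Gpd2, is 113.7 kb, and a cluster of shared sites sat near its middle. They lay 57.8 to 61.2 kb from the Nr4a2 start and 55.9 to 52.5 kb from that of Gpd2, which encodes a mitochondrial glycerol phosphate dehydrogenase, and so were not counted for Nr4a2. Heights there were 101 and 128 at 57181736 to 57181885, 88 and 110 at 57182016 to 57182185, 65 and 85 at 57182316 to 57182505, and 22 and 42 at 57185116 to 57185265. The first of these was higher in each library than every distal site given to a member. On the other side the next protein-coding start, that of the potassium channel gene Kcnj3, lay 1675.9 kb from the inner Nr4a2 start at 57113072.

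Over all members there were 12 shared distal sites, with a median of 2 per member, and each member had at least 1. Of all genes 64.3% had at least 1, with a median of 1 and a mean of 2.56. Per 100 kb of the territory nearest to the gene, shared distal sites numbered 3.2 at Th, 2.0 at Dbh, 2.8 at Slc6a2, 4.7 at Slc6a3 and 1.2 at Nr4a2, against a median of 2.5 over all genes. Nr4a2, with the widest territory at 161.8 kb, was thus the sparsest. The order of the members depended on the rule: counted whichever gene is nearest, shared distal sites numbered 11 at Dbh, 7 at Slc6a2, 6 at Nr4a2, and 5 each at Th and Slc6a3. The height was greater in replicate 2 at all 18 shared sites of the members, as it was at 94.6% of all shared sites. By percentile within the library, 10 of the 18 stood higher in replicate 2, 7 stood lower and 1 was equal.

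Among the members' distal sites, CTCF consensus matches stood in shared ones only. A match stood in the central 150 bases of 4 of the 12 shared distal sites and in 0 of the 42 distal sites of 1 library alone. Over all genes 9.55% of shared distal sites and 0.62% of distal sites of 1 library held one. Among the 8572 shared distal sites at least as high as 71 and 87, the heights of the Slc6a2 site, the share was 19.7%. The 4 of 12 is not directly comparable with this share, since sites of any height were counted. The matching Slc6a3 site of 66 and 83 lay below these heights. The CTCF consensus was added to the search after these sequences had been read. The E-box CATCTG, a form bound by proneural factors, stood in 6 of the 12 shared distal sites, spread over Th, Dbh, Slc6a2 and Slc6a3, against 15.8% of all shared distal sites. CAGCTG stood in 2 of them, at Th and Slc6a3, against 15.5%.

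Whole sites show how these matches lie. The site of Th 5.14 kb downstream of its start and that of Slc6a3 23.3 kb upstream are written on the gene's strand, with capitals again marking motif matches. In the Slc6a3 site the reverse complement of AAGGTCA begins at base 4 and the CTCF consensus match at base 44, and in the Th site the CTCF match begins at base 78.
Th, chr7:142894796-142894945, minus strand: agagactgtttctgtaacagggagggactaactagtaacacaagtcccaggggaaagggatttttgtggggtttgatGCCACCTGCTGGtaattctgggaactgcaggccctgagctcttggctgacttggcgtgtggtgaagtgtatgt
Slc6a3, chr13:73513376-73513525, plus strand: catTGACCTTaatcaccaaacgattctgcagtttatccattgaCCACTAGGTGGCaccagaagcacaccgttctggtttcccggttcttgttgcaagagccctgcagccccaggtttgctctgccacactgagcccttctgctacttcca

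CpG content and promoter peaks followed the same order over the 5 members. The observed to expected CpG ratio within 500 bp of the main start was 0.22 at Dbh, 0.27 at Th, 0.47 at Slc6a2, 0.55 at Slc6a3 and 0.86 at Nr4a2. Highest promoter peaks in replicate 2 were none, 51, 73, 83 and 133 in that order, and in replicate 1 none, none, 39, 50 and 116. The ratio at Nr4a2 exceeded that of 86.7% of genes and that at Dbh 25.1%. These are 5 chosen genes, so the shared order is a description only.

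The rest of the pathway was described with 67 genes in 6 lists, of which 60 (89.6%) had a shared promoter site, against 65.7% of all protein-coding genes. Genes named as highest in a list are so by mean rank over both libraries. Of the enzymes of synthesis and its cofactor, 6 of 7 had one, with the highest at the cofactor genes Qdpr (126 and 135), Pts (115 and 133) and Spr (99 and 122). Ddc, the decarboxylase that acts after Th, was the exception and resembled Th at the promoter: it had no promoter peak in replicate 1 and 1 of height 67 in replicate 2. Its distal peaks, 17 in replicate 1 and 7 in replicate 2, differed in direction from the 9 and 14 of Th. Pnmt, whose product turns noradrenaline into adrenaline, had a shared but low site at 22 and 48. All 6 genes of storage, uptake and breakdown had a shared site, led by the vesicular transporter gene Slc18a1 (124 and 137) and followed by the breakdown enzyme gene Maoa (76 and 104). Slc18a2, the vesicular transporter gene of brain monoamine neurons, had 55 and 114.

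Among factors of noradrenergic specification 7 of 10 had a shared promoter site, with Insm1 (95 and 132) and Tlx3 (93 and 112) among the highest. Phox2a, a factor of the locus coeruleus, and Tfap2b had promoter peaks in replicate 2 alone, at 84 and 97, and Hand2 had peaks of 39 and 105 that did not form a shared site. Among factors of dopaminergic specification 11 of 12 had one, the highest at Msx1 (113 and 129), Neurog2 (104 and 133) and En2 (110 and 121), with none in either library at the retinaldehyde dehydrogenase gene Aldh1a1. All 14 receptor genes had one, led by Adra1b (99 and 130), Adra2a (105 and 122) and Drd1 (84 and 109).

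**Figure D4:**
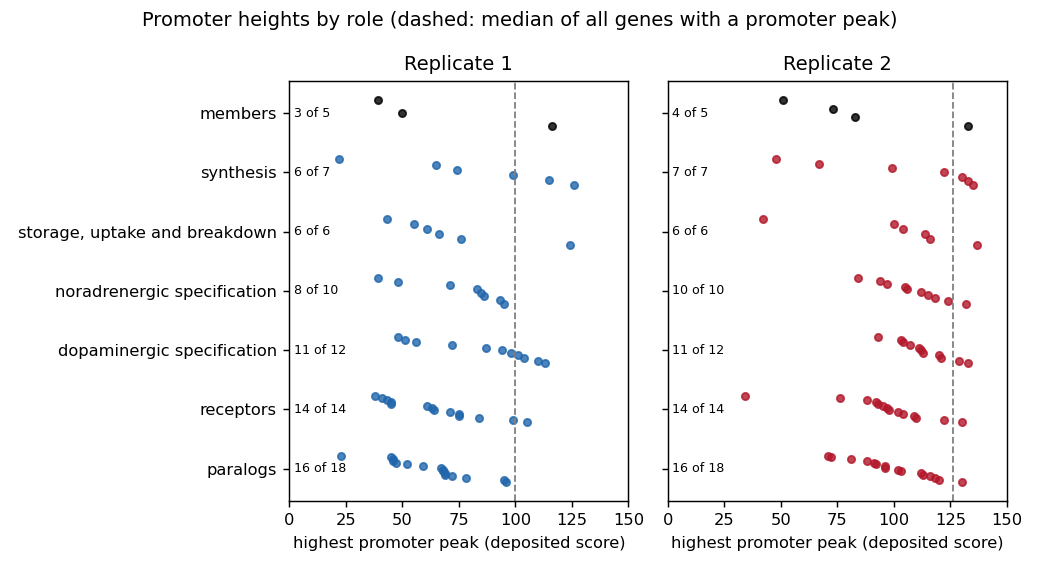
Highest promoter peak of each member (black) and of each pathway gene by role (coloured) in each replicate, with the number of genes that have a promoter peak written at the left and the median of all genes with one as a dashed line. The members span 39 to 116 in replicate 1 and 51 to 133 in replicate 2.

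Close relatives of the members had peaks where some members had none. Among 18 paralogs 16 had a shared promoter site, with Nr4a3 (95 and 130) and the taurine transporter gene Slc6a6 (96 and 120) among the highest. Nr4a1 had 59 and 103, below Nr4a2 in both libraries. The serotonin transporter gene Slc6a4 had 46 and 96, beside 39 and 73 at Slc6a2 and 50 and 83 at Slc6a3. The serotonin pathway hydroxylase genes Tph2 (78 and 102) and Tph1 (52 and 71) had a promoter peak in both libraries, and the transporter gene Slc6a12 had none in either. Moxd1, a relative of Dbh, had 45 and 96.

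Distal sites were most numerous at the specification factors. Pathway genes had a median of 4 shared distal sites, with 16.5 for dopaminergic and 7.5 for noradrenergic factors, 4.5 for receptors, 4 for paralogs, 3 for synthesis and 1.5 for storage, uptake and breakdown. The members had 1 to 4. Nr4a2 had 2 distal peaks in replicate 1 and 27 in replicate 2, while medians were 10 and 28.5 for noradrenergic factors, 27 and 39 for dopaminergic factors and 7 and 11 for all 67 pathway genes. Gata2 had 2 and 26, Tfap2b 5 and 62, and Hand2 13 and 70. The other NR4A genes differed less between the libraries, with 4 and 5 at Nr4a1 and 11 and 21 at Nr4a3. Over all 67 pathway genes 52 (77.6%) had more distal peaks in replicate 2 and 9 (13.4%) had fewer, against 46.2% and 16.0% of all protein-coding genes. The rest had equal numbers, genes without any distal peak included, and were a larger part of all genes than of pathway genes. The shares are therefore not directly comparable. Gata2, Tfap2b, Hand2, Nr4a1 and Nr4a3 were singled out after their values were seen.

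**Figure D5:**
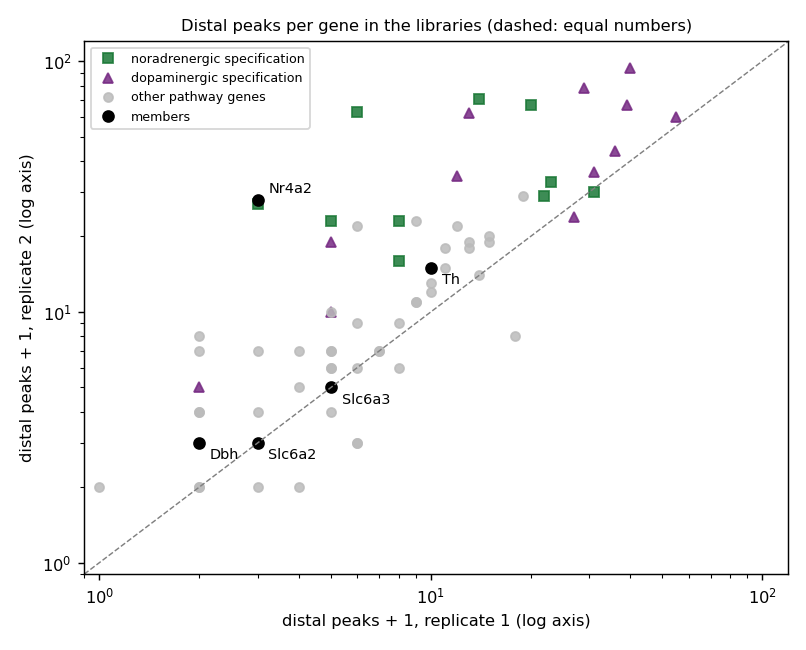
Distal peaks per gene plus 1 in replicate 1 and replicate 2, on log axes, for members (black), factors of noradrenergic (squares) and dopaminergic (triangles) specification and other pathway genes (grey). Nr4a2 (2 and 27) lies far above the dashed line of equal numbers, and Slc6a2 (2 and 2) and Slc6a3 (4 and 4) lie on it.

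Likeness to the 67 pathway genes was measured as the distance over 4 percentiles, those of promoter height and of distal peak number in each library. Th was most like Phox2a (7.8 percentile points away) and then Ddc (18.0), neither with a promoter peak in replicate 1. Slc6a3 was most like Tph1 (7.9) and Drd4 (8.0), and Slc6a2 most like Maob and then Adrb3 (16.6). Dbh had no close match, the nearest being Pnmt (27.9) and Maob (32.8). Nr4a2 had the most distant neighbours, Qdpr (34.3) and Gata2 (39.0), the farthest of the 5 members.

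The nearest protein-coding neighbours were more open at the promoter than the member in several cases. Ascl2, 37.6 kb from the Th start of the longer transcript at 142931128 and farther from the main start, had 77 and 126. Ins2 on the other side had no promoter peak. Fam163b and Sardh, on either side of Dbh, had 46 and 96 and 31 and 43. Clptm1l beside Slc6a3 had 120 and 137, above Slc6a3 in both libraries as Lpcat1 was. Capns2 and Ces1a, beside Slc6a2, had no promoter peak in either library. Gpd2 (72 and 112) and Kcnj3 (46 and 85) were lower than Nr4a2.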

How the data were processed

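DNase-seq peaks and hotspots of 2 hindbrain libraries were used. Reads were aligned to mm10 per the labels, and peaks were called in each replicate separately per the text beside the files. The aligner, caller, versions, filters and scaling were not given in the sources used. The deposited peak height is a score, a whole number of at most 149 here, for peaks of 150 bp. The deposited hotspot value is the −log10 of a false discovery rate, from 1.3 to 6 or written as 100, with a deposited score derived from it.

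Only the autosomes (to chromosome 19) and sex chromosomes were used, and peaks sharing 1 bp or more became a merged site. No peak passed a chromosome end of GRCm38.p6. Starts were the 41438 of protein-coding genes in the basic set of GENCODE M21, and the main start is the one nearest RefSeq's. Sites were placed by their centre and per-library peaks by their own. Motifs were searched on both strands of the central 150 bp. The assignment was tested on simulated data. Python 3.11.15, numpy 2.4.6, pandas 2.3.3, pysam 0.24.0 and matplotlib 3.10.9 were used.

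The members and lists (synthesis, storage and uptake and breakdown, noradrenergic and dopaminergic specification, receptors, paralogs, and markers) were chosen with earlier results of these data known. Named were all members with their promoter sites, highest shared distal sites, highest distal site of each library alone and neighbours, the 3 highest genes of each list and the first 2 without a promoter peak, the closest paralogs, and the 2 most alike genes. Others are given as chosen after their values were seen: Ddc, Pnmt, Slc18a2, Phox2a, Tfap2b, Hand2 and the sites nearer to another gene. Some genes that meet the rule are not reported here. Alternatives were each replicate alone, a height minimum, lists of equal length, a larger overlap and other windows, and the closing section gives their effect. Replicates come from separate tissue samples with the same donor entry.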

Additional observations from a re-analysis of the deposited data

How the results depend on the processing

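With each replicate alone, the number of distal sites of the members that was 12 when both had to agree ranged from 18 to 49. With sites counted whichever gene is nearest, an alternative chosen after seeing the data, it was 34, and Dbh rather than Th then had the most. Without peaks in hotspots of over 2 kb, also chosen after seeing the data, 28 pathway genes had a shared promoter site in place of 60. The share of all protein-coding genes under this setting is not given, so whether the fall is particular to pathway genes is not known. The other 31 values of the main results under the alternatives run stayed within the limits set, 1.5 times for a count, but some lay at that limit. Members with a shared promoter site fell from 3 to 2 without peaks in hotspots of over 2 kb. Members with a promoter hotspot in both libraries fell from 3 to 2 when only hotspots of value 100 counted. With replicate 2 alone both of these counts were 4. Shared distal sites of the members fell from 12 to 8 when starts of genes of every biotype were used. Promoter percentiles depended on the reference: Slc6a3 exceeded 67.4% and 77.2% of all peaks but 11.8% and 12.2% of the highest promoter peaks, and all 7 such values moved in the same way. No paired analysis was possible because there is 1 group. Depth is unknown, which limits what a peak listed in 1 library only, as at the Th promoter, can show.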
